A study of Marchantia polymorpha with 12 samples.

Results

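In thalli of the liverwort Marchantia polymorpha, 108 genes had a higher transcript level in 1 Mpez1 double mutant and a lower level in the other, each relative to the controls of its own experimental set. They were chosen by their measured values: the mean level in CPM, a library's count of a gene scaled to 1000000 gene counts, had to reach 2 in the controls of each set, and the ratio of double mutant to control, with 0.5 CPM added to each mean, had to be at least 1.4 in 1 set and at most 0.714 in the other. Of the 19441 genes in the deposited tables, 10863 met the minimum in both sets of controls and are called eligible here. Of these, 58 were higher in the set 1 double mutant and lower in the set 2 double mutant, and 50 were lower in set 1 and higher in set 2. Since all 12 libraries entered the choice, the ratios and levels of these genes are given as a description and are not tested.

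The 4 groups held 3 libraries each. Mpknox2-1 Mpez1-1 double mutants were set beside Mpknox2-1 single mutants in set 1, and Mpknox2-1 Mpez1-2 double mutants beside their own Mpknox2-1 single mutants in set 2. All plants were 14-day thalli, the flat green haploid body of the plant, grown under continuous white light, and all carried the Mpknox2-1 mutation, so neither set had a wild type. Each double mutant was represented by 1 allele in 1 set, and allele and set therefore cannot be told apart. In addition, the column headers of the set 2 tables carry the word Tak2 and those of set 1 do not. Tak-2 is the name of a female laboratory accession, and the labels say nothing of the accession in either set. Labels call the replicates biological without saying how cultures were divided.

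MpE(z)1, the gene mutated in the double mutants, encodes a homologue of Enhancer of zeste, the catalytic subunit of Polycomb repressive complex PRC2. PRC2 methylates a lysine of histone H3, which marks genes for repression, and loss of PRC2 activity is generally followed by expression of genes that are otherwise silent. MpKNOX2, a homeodomain transcription factor gene, is known for its role in the diploid phase.

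MpE(z)1 was measured at 14.8, 13.3 and 11.4 CPM in the Mpez1-1 libraries, against 33.1, 25.1 and 25.4 CPM in the set 1 controls, and at 20.8, 24.2 and 21.6 CPM in the Mpez1-2 libraries, against 37.3, 34.7 and 41.2 CPM in the set 2 controls. MpKNOX2 had between 3 and 15 counts in every double mutant library and between 0 and 2 in every control. Gene counts per library ranged from 7019900 to 12098548. All 6 matched thallus marker genes, among them MpNOP1 of air pore formation and MpRSL1 of rhizoid development, had counts in all 12 libraries. Their summed level was 175.0 to 198.4 CPM in Mpez1-1 libraries and 214.7 to 243.3 CPM in set 1 controls, and 244.8 to 257.5 CPM in Mpez1-2 libraries and 291.6 to 317.0 CPM in set 2 controls, lower in both double mutants without overlap. MpC3HDZ was the largest part of this sum, with means of 90.05 CPM in Mpez1-1 libraries and 137.3 CPM in set 1 controls. Its set 2 means were 123.5 CPM in Mpez1-2 libraries and 147.7 CPM in controls. MpGCAM1 alone had higher means in both double mutants, at 8.13 CPM against 3.71 CPM in set 1 and 4.38 CPM against 1.34 CPM in set 2. The sperm protamine gene MpPRM had between 0 and 2 counts. The summed level of 6 genes that mark sexual organs was 55.4 to 69.8 CPM in Mpez1-1 libraries and 65.2 to 69.8 CPM in set 1 controls, and 106 to 122.9 CPM in Mpez1-2 libraries and 128 to 129.7 CPM in set 2 controls. MpRKD made up most of this sum, with a mean of 43.6 CPM in Mpez1-1 libraries and 60.9 CPM in set 1 controls, and 100.5 CPM in Mpez1-2 libraries and 122.1 CPM in set 2 controls. MpFGMYB had means of 5.26 CPM in Mpez1-1 libraries and 1.45 CPM in set 1 controls, and 6.07 CPM in Mpez1-2 libraries and 0.990 CPM in set 2 controls, and MpBNB was at 1.90 and 1.08 CPM in the double mutants and at 0 in both controls. The summed level of 4 sporophyte marker genes was 8.24 to 9.40 CPM in Mpez1-1 libraries and 1.75 to 2.31 CPM in set 1 controls, and 8.89 to 13.5 CPM in Mpez1-2 libraries and 1.11 to 2.00 CPM in set 2 controls. The sporophyte sum was thus higher in both double mutants. In the double mutants MpBELL1 made up most of this sum, with a mean of 5.16 CPM in Mpez1-1 and 7.42 CPM in Mpez1-2 libraries. MpKNOX1 was lower in Mpez1-1 libraries than in set 1 controls, at 0.28 and 0.711 CPM. In set 2 it was higher in Mpez1-2 libraries than in controls, at 0.966 and 0.555 CPM. MpKNOX1 had between 1 and 11 counts per library, so both differences rest on few reads. The part of these cell types in the results was not tested.

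Among the eligible genes, opposite placement was the rarest of the 4 combinations of a higher or lower ratio in both sets. In all, 732 genes passed the upper ratio in both sets and 390 passed the lower ratio in both, against 58 and 50 in opposite directions, or 0.534% and 0.46% of the eligible genes. The median ratio of the 58 genes was 0.90 in set 1 and -0.64 in set 2 on the log2 scale. For the 50 genes it was -0.72 in set 1 and 0.74 in set 2, beside medians of -0.10 and -0.03 over all eligible genes. Most of these ratios were moderate: 5 genes of each class differed by at least 2-fold in both sets. In bulk tissue, fewer cells of a type and less RNA per cell cannot be told apart.

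**Figure D1:**
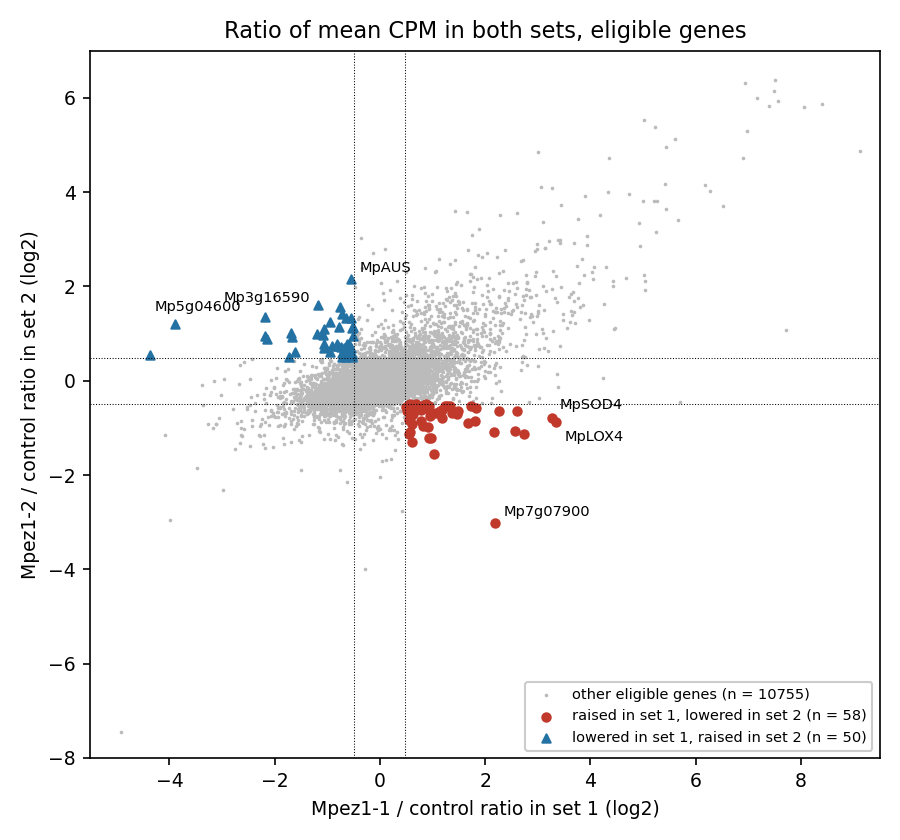
Log2 ratio of mean CPM (0.5 added) of double mutant to control in set 1 (x axis) and set 2 (y axis) for the eligible genes, with dotted lines at the ratios of 1.4 and 0.714. The 58 red circles and 50 blue triangles are the genes placed in opposite directions; the other eligible genes are grey.

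The 3 libraries of a group separated from the 3 of its control for most of these genes. All Mpez1-1 libraries lay above all set 1 controls for 52 of the 58 genes, beside 24.4% of the eligible genes. All Mpez1-2 libraries lay below all set 2 controls for 40 of the 58, beside 26.1%. Both held for 36 genes, beside 2.07% of the eligible genes. In the other class, all Mpez1-1 libraries lay below their controls for 40 of the 50 genes, beside 36.1% of the eligible genes, and all Mpez1-2 libraries above theirs for 46, beside 21.5%. Both held for 38 genes, beside 2.4% of the eligible genes. For 2 genes of each class the groups overlapped in both sets.

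In edgeR's quasi-likelihood test across all genes, 50 of the 58 genes were called higher in set 1 at an adjusted p under 0.05 and 32 were called lower in set 2, with 26 called in both. The calls in 1 set were made for 26.5% and 17.4% of all genes tested, and those in both for 1.1% of the eligible genes. Of the other 50 genes, 36 were called lower in set 1 and 44 higher in set 2, with 33 called in both, beside 24.1% and 20.4% of all genes and, for both, 0.893% of the eligible genes. The difference between the sets was called for 50 of the 58 genes as lower in set 2 than in set 1 (12.3% of all genes) and for 47 of the 50 as higher in set 2 (10.7% of all genes). The choice of genes used these same contrasts, so nothing is read from the counts of calls. All 108 genes passed the filter on low counts.

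**Figure D2:**
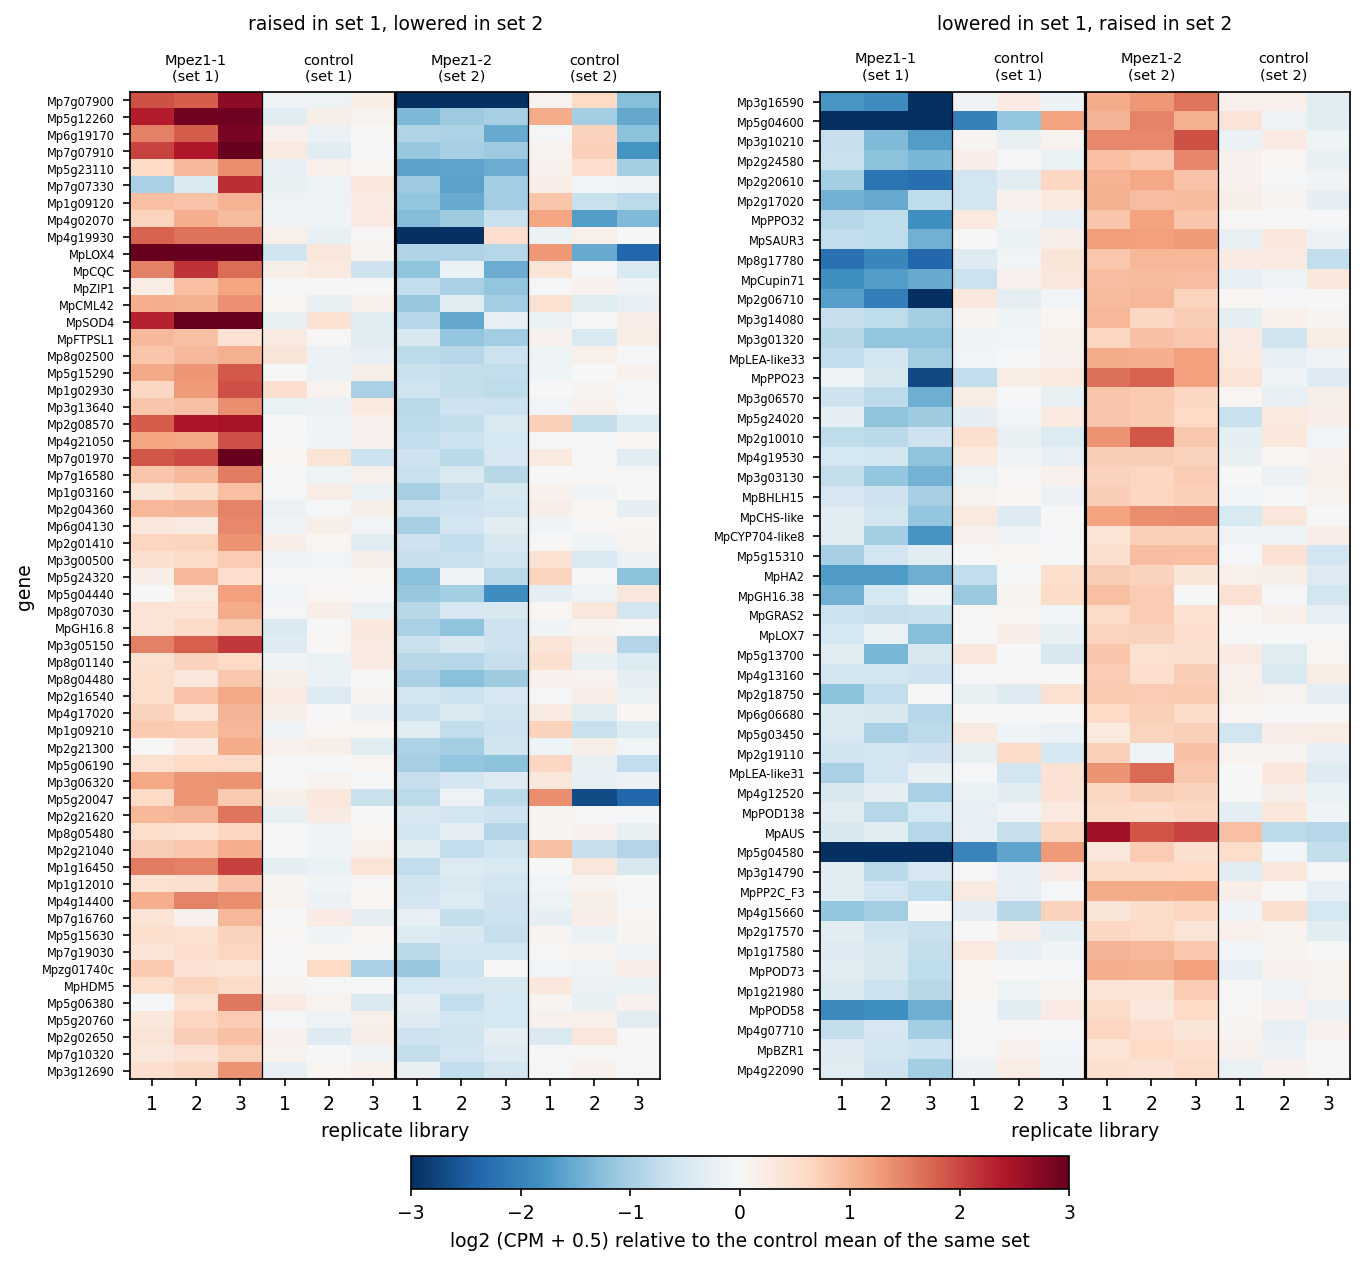
Level of each of the 108 genes (rows) in each of the 12 libraries (columns, replicates 1 to 3 of each group), as log2 of CPM plus 0.5 relative to the control mean of the same set; colours saturate at 3 log2 units either way. In the left panel (58 genes) the mean of the Mpez1-1 columns is above 0 and that of the Mpez1-2 columns below 0 for most rows; in the right panel (50 genes) the colours are turned round.

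Of the genes higher in set 1 and lower in set 2, 8 had a symbol in the reference table and 50 are known by identifier only. The named genes cover oxidative and lipid chemistry, calcium signalling, terpene synthesis and the cell wall. MpSOD4, of the superoxide dismutase family that removes superoxide, had 17.1, 31.98 and 52.4 CPM in the Mpez1-1 libraries, against 2.57, 4.38 and 2.25 CPM in set 1 controls, a ratio of 9.62. In set 2 it had 43.4, 27.3 and 67.4 CPM in the Mpez1-2 libraries, against 68.7, 78.5 and 91.1 CPM in controls, a ratio of 0.582. The groups did not overlap in either set, and the set 1 controls stood apart as the only group below 5 CPM. Its lower level in the Mpez1-2 libraries was not called by edgeR.

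MpLOX4 is named as a lipoxygenase, an enzyme class that oxygenates polyunsaturated fatty acids. It had 75.0, 108 and 88.2 CPM in the Mpez1-1 libraries, against 5.42, 10.8 and 9.01 CPM in set 1 controls, a ratio of 10.2. In set 2 it had 36.2, 36.6 and 37.5 CPM in the Mpez1-2 libraries, against 168, 23.6 and 12.99 CPM in controls. The set 2 ratio of 0.542 rested on control replicate 1 alone: without that library the log2 ratio was 0.99, which is in the same direction as in set 1.

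MpCML42, of the calmodulin-like calcium sensors, was abundant in set 1, with 544, 536 and 657 CPM in the Mpez1-1 libraries, against 266, 218 and 282 CPM in controls. In set 2 the Mpez1-2 libraries held 8.30, 14.7 and 8.99 CPM, against 26.2, 14.7 and 15.96 CPM in controls. The ratios were 2.27 in set 1, without overlap, and 0.574 in set 2, where replicate 2 of the double mutant lay at the level of the lowest control. The sets themselves lay far apart, as the level in set 2 controls was 13.2 times lower than in set 1 controls.

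MpGH16.8, of glycoside hydrolase family GH16, which includes enzymes that cut and rejoin cell wall xyloglucan in flowering plants, was also measured far lower in set 2. Its levels were 243, 272 and 311 CPM in the Mpez1-1 libraries, against 134, 183 and 227 CPM in set 1 controls, and 16.2, 13.9 and 21.2 CPM in the Mpez1-2 libraries, against 30.1, 34.5 and 33.2 CPM in set 2 controls. No libraries overlapped between double mutant and control in either set. Without set 1 control replicate 1 the gene no longer met the upper ratio.

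The other 4 named genes of this class are described by their means. MpFTPSL1, named for the fungal-type terpene synthase-like genes, averaged 7.15 ± 1.41 CPM in Mpez1-1 libraries against 3.96 ± 0.954 CPM in set 1 controls, and 2.47 ± 0.811 CPM in Mpez1-2 libraries against 4.90 ± 1.29 CPM in set 2 controls (SD, n = 3 libraries each). MpZIP1 averaged 6.30 ± 2.19 CPM in Mpez1-1 libraries against 3.33 ± 0.0962 CPM in set 1 controls, and 6.97 ± 1.18 CPM in Mpez1-2 libraries against 13.9 ± 1.15 CPM in set 2 controls. MpHDM5 averaged 35.0 ± 2.02 CPM in Mpez1-1 libraries against 23.1 ± 1.37 CPM in set 1 controls, and 17.4 ± 0.333 CPM in Mpez1-2 libraries against 25.0 ± 5.38 CPM in set 2 controls. For these 3 genes the libraries of each double mutant and its controls did not overlap. MpCQC averaged 10.6 ± 2.71 CPM in Mpez1-1 libraries against 2.65 ± 0.983 CPM in set 1 controls, and 1.10 ± 0.796 CPM in Mpez1-2 libraries against 2.38 ± 0.826 CPM in set 2 controls, and in set 2 its groups overlapped.

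Among genes without a symbol, the neighbours Mp7g07900 and Mp7g07910 showed some of the widest contrasts between sets. Mp7g07900 had 14.9, 14.0 and 25.9 CPM in the Mpez1-1 libraries, against 3.31, 3.22 and 4.30 CPM in set 1 controls, a ratio of 4.57. In set 2 it had 25.9, 25.6 and 25.9 CPM in the Mpez1-2 libraries, against 228, 320.3 and 87.2 CPM in controls, a ratio of 0.124. The mean levels of the double mutants lay within 2-fold of each other, whereas the set 2 controls held 51.6 times the level of the set 1 controls.

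Mp7g07910 had 12.8, 16.7 and 26.9 CPM in the Mpez1-1 libraries, against 3.40, 2.07 and 2.77 CPM in set 1 controls, and 44.7, 49.6 and 46.4 CPM in the Mpez1-2 libraries, against 108, 162 and 28.5 CPM in set 2 controls. Set 2 control replicate 3 was the lowest of its group for both neighbours, and for Mp7g07910 it lay below all Mpez1-2 libraries. Mp5g23110 had the same order of groups, with 36.4, 48.5 and 63.4 CPM in the Mpez1-1 libraries, against 19.9, 26.8 and 25.1 CPM in set 1 controls, and 48.4, 48.8 and 52.9 CPM in the Mpez1-2 libraries, against 161, 210.5 and 72.4 CPM in set 2 controls.

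A further 3 unnamed genes had large ratios in both sets, and in each of them some libraries of a group stood apart. Mp6g19170 had 31.0, 38.6 and 78.5 CPM in the Mpez1-1 libraries, against 11.6, 9.26 and 10.8 CPM in set 1 controls, and 19.2, 18.8 and 12.6 CPM in the Mpez1-2 libraries, against 35.2, 59.2 and 15.3 CPM in set 2 controls. Mp5g12260 averaged 20.5 ± 4.35 CPM in Mpez1-1 libraries against 2.65 ± 0.551 CPM in set 1 controls, and 8.47 ± 1.08 CPM in Mpez1-2 libraries against 19.2 ± 19.9 CPM in set 2 controls; its set 2 ratio turned to a log2 value of 0.12 without control replicate 1. For Mp7g07330, the Mpez1-1 libraries had 1.23, 1.94 and 15.1 CPM, against 2.39, 2.56 and 3.69 CPM in controls, so that replicate 3 alone gave the higher mean, and without it the log2 ratio was -0.70.

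The genes with the highest CPM in this class, a scale not corrected for gene length, had no symbol apart from MpCML42. Mp5g20760 had 679.8, 849.5 and 922 CPM in the Mpez1-1 libraries, against 536, 495 and 610.3 CPM in set 1 controls, and 1828, 1601 and 1661 CPM in the Mpez1-2 libraries, against 2643, 2663 and 1894 CPM in set 2 controls. Mp2g04360 averaged 761 ± 153 CPM in Mpez1-1 libraries against 334 ± 41.2 CPM in set 1 controls, and 110.5 ± 4.12 CPM in Mpez1-2 libraries against 170.4 ± 29.7 CPM in set 2 controls. Mp5g15630 averaged 501 ± 41.6 CPM in Mpez1-1 libraries against 340.1 ± 25.6 CPM in set 1 controls, and 60.6 ± 5.96 CPM in Mpez1-2 libraries against 87.1 ± 9.86 CPM in set 2 controls. The groups of these 3 genes did not overlap in either set.

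**Figure D3:**
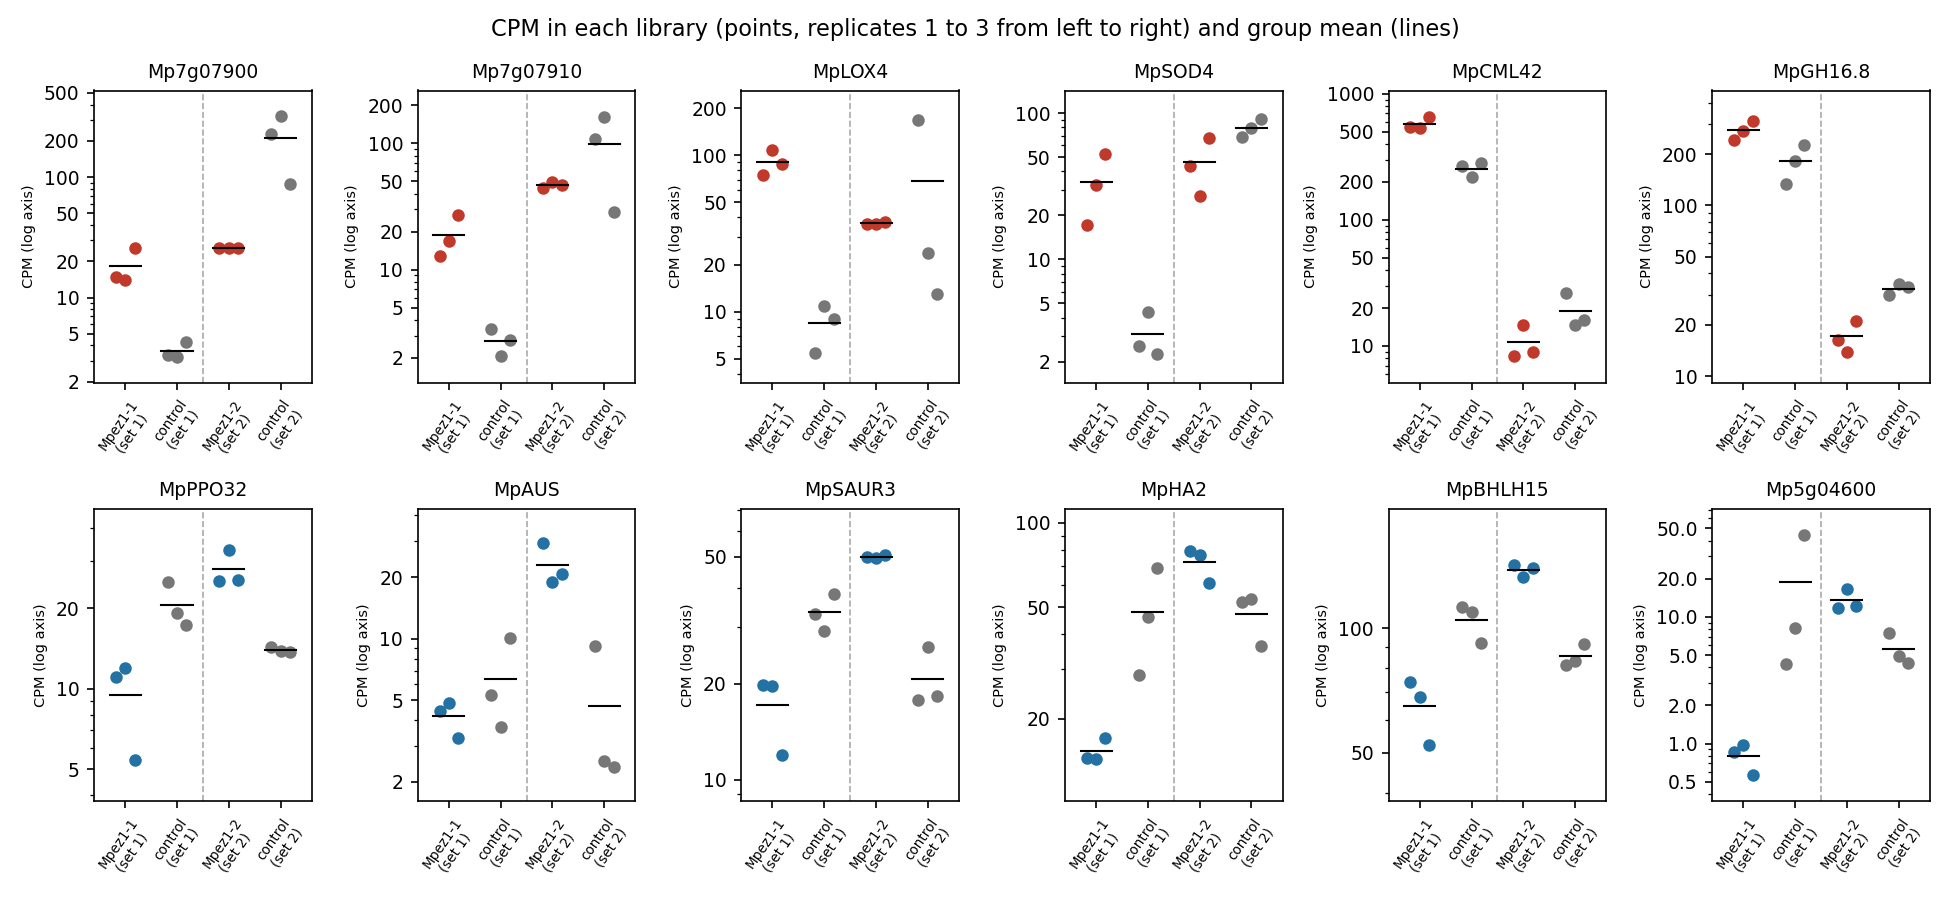
CPM on a log axis in each library for 6 genes higher in set 1 and lower in set 2 (top row, red) and 6 genes lower in set 1 and higher in set 2 (bottom row, blue); controls are grey, lines are group means, and the dashed line parts the sets. MpLOX4 and Mp5g04600 each have 1 control library far above the other 2 of its group (168 and 43.9 CPM).

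Of the 50 genes lower in set 1 and higher in set 2, 19 had a symbol. Among them were 3 transcription factor genes. MpBHLH15, of the basic helix-loop-helix family, had 74.0, 68.2 and 52.3 CPM in the Mpez1-1 libraries, against 113, 109 and 91.8 CPM in set 1 controls, and 142, 133 and 139.6 CPM in the Mpez1-2 libraries, against 81.3, 83.4 and 91.5 CPM in set 2 controls. MpGRAS2, of the plant-specific GRAS family, had 20.9, 20.2 and 20.8 CPM in the Mpez1-1 libraries, against 33.7, 34.4 and 31.3 CPM in set 1 controls, and 39.6, 45.6 and 36.3 CPM in the Mpez1-2 libraries, against 27.6, 29.5 and 22.3 CPM in set 2 controls. MpBZR1, of the family that acts downstream of brassinosteroids in flowering plants, averaged 86.6 ± 8.20 CPM in Mpez1-1 libraries against 125 ± 10.3 CPM in set 1 controls, and 97.1 ± 6.10 CPM in Mpez1-2 libraries against 68.4 ± 7.30 CPM in set 2 controls (SD, n = 3 libraries each). In all 3 the groups did not overlap in either set, and MpBZR1 lay close to both ratio thresholds.

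A second group comprised genes of growth and signalling. MpSAUR3, of the small auxin up-regulated RNA family, had 19.8, 19.7 and 11.97 CPM in the Mpez1-1 libraries, against 33.0, 29.2 and 38.3 CPM in set 1 controls, a ratio of 0.519. In set 2 it had 49.7, 49.4 and 50.5 CPM in the Mpez1-2 libraries, against 17.7, 26.0 and 18.2 CPM in controls, a ratio of 2.38. MpHA2, named as a plasma membrane proton pump (H+-ATPase), had 14.5, 14.4 and 17.1 CPM in the Mpez1-1 libraries, against 28.5, 46.1 and 69.0 CPM in set 1 controls, and 79.1, 76.6 and 60.8 CPM in the Mpez1-2 libraries, against 52.0, 53.2 and 36.2 CPM in set 2 controls. For neither gene did a double mutant overlap its controls. MpPP2C_F3, of the protein phosphatase 2C family, averaged 117 ± 17.9 CPM in Mpez1-1 libraries against 169.5 ± 31.2 CPM in set 1 controls, and 151 ± 1.302 CPM in Mpez1-2 libraries against 69.2 ± 10.7 CPM in set 2 controls.

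By their symbols, 5 of the named genes were polyphenol oxidases or class III peroxidases, enzymes that oxidise phenols. The polyphenol oxidase gene MpPPO32 had 11.1, 11.99 and 5.41 CPM in the Mpez1-1 libraries, against 25.1, 19.2 and 17.3 CPM in set 1 controls, and 25.4, 33.1 and 25.5 CPM in the Mpez1-2 libraries, against 14.4, 13.9 and 13.8 CPM in set 2 controls, without overlap in either set. MpPPO23 had 4.06, 3.13 and 0.285 CPM in the Mpez1-1 libraries, against 2.57, 5.46 and 5.73 CPM in set 1 controls, and 15.8, 17.2 and 11.6 CPM in the Mpez1-2 libraries, against 6.38, 4.23 and 3.47 CPM in set 2 controls. Its set 1 groups overlapped, and without Mpez1-1 replicate 3 it did not meet the rule. Class III peroxidases, secreted haem enzymes that act on phenols of the cell wall, were represented by MpPOD73, MpPOD138 and MpPOD58.

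MpPOD73 had 20.3, 18.6 and 15.2 CPM in the Mpez1-1 libraries, against 27.0, 25.9 and 25.0 CPM in set 1 controls, and 112, 109.8 and 122 CPM in the Mpez1-2 libraries, against 43.4, 56.6 and 55.8 CPM in set 2 controls. MpPOD138 averaged 12.7 ± 2.37 CPM in Mpez1-1 libraries against 18.8 ± 3.81 CPM in set 1 controls, and 62.6 ± 1.76 CPM in Mpez1-2 libraries against 41.6 ± 10.1 CPM in set 2 controls. MpPOD58 averaged 0.629 ± 0.197 CPM in Mpez1-1 libraries against 3.23 ± 0.709 CPM in set 1 controls, and 12.4 ± 1.32 CPM in Mpez1-2 libraries against 8.59 ± 0.981 CPM in set 2 controls. All 3 peroxidase genes were more abundant in every set 2 library than in any set 1 library, and for none of them did a double mutant overlap its controls.

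MpAUS had 4.42, 4.86 and 3.28 CPM in the Mpez1-1 libraries, against 5.33, 3.72 and 10.04 CPM in set 1 controls, with overlap. In set 2 it had 29.2, 18.8 and 20.6 CPM in the Mpez1-2 libraries, against 9.23, 2.52 and 2.38 CPM in controls, and its ratio of 4.49 was the highest of the 50 genes in that set. Without set 2 control replicate 1 it was 7.93, and the gene did not meet the rule without set 1 control replicate 3 or without Mpez1-1 replicate 3. MpCHS-like, named for chalcone synthases that start flavonoid synthesis, averaged 10.2 ± 2.92 CPM in Mpez1-1 libraries against 16.2 ± 3.82 CPM in set 1 controls, and 14.7 ± 1.15 CPM in Mpez1-2 libraries against 5.504 ± 1.58 CPM in set 2 controls. Its set 1 groups overlapped. The cytochrome P450 gene MpCYP704-like8 averaged 5.95 ± 2.995 CPM in Mpez1-1 libraries against 11.9 ± 1.10 CPM in set 1 controls, and 31.9 ± 3.74 CPM in Mpez1-2 libraries against 20.6 ± 2.78 CPM in set 2 controls.

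Genes linked to drying and storage followed. MpLEA-like33, named for the late embryogenesis abundant proteins that protect drying cells, had 46.2, 52.4 and 37.6 CPM in the Mpez1-1 libraries, against 73.3, 74.2 and 85.5 CPM in set 1 controls, and 55.1, 54.3 and 59.1 CPM in the Mpez1-2 libraries, against 30.9, 21.0 and 23.3 CPM in set 2 controls. MpLEA-like31 averaged 14.7 ± 3.86 CPM in Mpez1-1 libraries against 21.9 ± 7.73 CPM in set 1 controls, and 12.1 ± 3.85 CPM in Mpez1-2 libraries against 4.53 ± 1.19 CPM in set 2 controls. Both were more abundant in set 1 controls than in set 2 controls. MpCupin71, of the cupin family that includes seed storage and germin-like proteins in flowering plants, averaged 0.332 ± 0.0910 CPM in Mpez1-1 libraries against 2.15 ± 0.862 CPM in set 1 controls, and 6.48 ± 0.0849 CPM in Mpez1-2 libraries against 3.15 ± 0.801 CPM in set 2 controls.

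A second lipoxygenase gene, MpLOX7, stood the other way round from MpLOX4, with 5.11 ± 1.98 CPM in Mpez1-1 libraries against 8.01 ± 1.25 CPM in set 1 controls, and 23.7 ± 1.75 CPM in Mpez1-2 libraries against 15.2 ± 0.436 CPM in set 2 controls. A second gene of family GH16, MpGH16.38, likewise stood in the opposite class to MpGH16.8, at 1.505 ± 0.838 CPM in Mpez1-1 libraries against 2.55 ± 1.54 CPM in set 1 controls, and 4.40 ± 1.46 CPM in Mpez1-2 libraries against 2.70 ± 1.06 CPM in set 2 controls. Its groups overlapped in both sets, so the opposite placement of the GH16 genes rests on overlapping libraries. For MpLOX7 the set 1 groups overlapped, and without set 2 control replicate 1 both lipoxygenase genes were higher in the set 2 double mutant, with a ratio of 1.98 for MpLOX4 and 1.55 for MpLOX7.

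Among genes without a symbol, Mp3g16590 had 2.95, 2.59 and 0.570 CPM in the Mpez1-1 libraries, against 10.1, 13.1 and 9.73 CPM in set 1 controls, and 53.2, 61.0 and 74.6 CPM in the Mpez1-2 libraries, against 26.9, 27.3 and 18.8 CPM in set 2 controls. Its ratios were 0.221 in set 1 and 2.55 in set 2, and its groups did not overlap. Mp5g04600 had 0.861, 0.972 and 0.570 CPM in the Mpez1-1 libraries, against 4.23, 8.18 and 43.9 CPM in set 1 controls, and 11.8, 16.6 and 12.3 CPM in the Mpez1-2 libraries, against 7.42, 4.94 and 4.36 CPM in set 2 controls. Set 1 control replicate 3 was far above the other controls here, yet the groups did not overlap. Without that library its set 1 ratio was 0.194, in place of 0.0675.

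When genes were ordered by the smaller of their 2 absolute log2 ratios, Mp3g10210, Mp2g24580, Mp2g20610 and Mp2g17020 came next, all low in CPM. Mp3g10210 averaged 1.01 ± 0.529 CPM in Mpez1-1 libraries against 2.90 ± 0.435 CPM in set 1 controls, and 16.4 ± 3.34 CPM in Mpez1-2 libraries against 4.996 ± 0.917 CPM in set 2 controls. Mp2g24580 averaged 2.24 ± 0.729 CPM in Mpez1-1 libraries against 5.21 ± 0.794 CPM in set 1 controls, and 14.7 ± 3.87 CPM in Mpez1-2 libraries against 6.64 ± 0.880 CPM in set 2 controls. Mp2g20610 averaged 0.654 ± 0.605 CPM in Mpez1-1 libraries against 3.24 ± 1.73 CPM in set 1 controls, and 5.36 ± 0.576 CPM in Mpez1-2 libraries against 2.39 ± 0.249 CPM in set 2 controls. Mp2g17020 averaged 3.46 ± 1.20 CPM in Mpez1-1 libraries against 8.56 ± 2.63 CPM in set 1 controls, and 4.57 ± 0.298 CPM in Mpez1-2 libraries against 2.06 ± 0.419 CPM in set 2 controls. Of the genes with the highest CPM in the class, Mp4g12520 averaged 489 ± 114 CPM in Mpez1-1 libraries against 718 ± 220.2 CPM in set 1 controls, and 832 ± 33.1 CPM in Mpez1-2 libraries against 516 ± 66.4 CPM in set 2 controls, with overlap in set 1. Mp4g22090 averaged 48.1 ± 10.8 CPM in Mpez1-1 libraries against 75.4 ± 11.7 CPM in set 1 controls, and 191 ± 8.41 CPM in Mpez1-2 libraries against 135 ± 16.4 CPM in set 2 controls.

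The levels of the sets were compared next, because a ratio can turn through the double mutant, through its control, or through both. The double mutants of the sets differed by at least 4-fold for 20 of the 58 genes and 17 of the 50. These were 34.5% and 34.0%, beside 5.21% of the eligible genes. Set 2 controls differed from set 1 controls by at least 4-fold for 13 of the 58 genes and for 4 of the 50, beside 2.25% of the eligible genes. Of the 13, 7 were higher in set 2 controls (among them Mp7g07900, Mp7g07910, MpSOD4 and MpLOX4) and 6 were lower (MpCML42, MpGH16.8, Mp1g09120, Mp8g01140, Mp1g09210 and Mp2g21040). The widest gap among the lower ones was that of Mp1g09210, with 209 ± 17.8 CPM in Mpez1-1 libraries against 116 ± 7.51 CPM in set 1 controls, and 1.57 ± 0.285 CPM in Mpez1-2 libraries against 2.56 ± 1.67 CPM in set 2 controls; its set 2 groups overlapped. Without set 2 control replicate 1, set 2 controls held 2.11 times the level of set 1 controls for MpLOX4, in place of 7.72, and 2.62 times for Mp5g12260, in place of 6.25, and the other 11 of the 13 stayed at least 4-fold apart. All 4 of the other class were lower in set 2 controls.

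By edgeR, the set 2 controls differed from the set 1 controls for 38 of the 58 genes and 31 of the 50, and 60.0% of all genes were called in that comparison. The double mutants of set 2 and set 1 differed for 44 and 41, beside 60.8% of all genes. The gap between the double mutants of the sets was smaller than the gap between their controls for 22 of the 58 genes and 12 of the 50, or 37.9% and 24.0%, beside 36.3% of the eligible genes. For 23 and 26 genes the order was crossed, with the control of 1 set and the double mutant of the other on top. Crossed orders were not counted over the eligible genes, so nothing is read from these 2 counts. The rule fixes part of this pattern, since a gene enters only if these gaps differ.

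**Figure D4:**
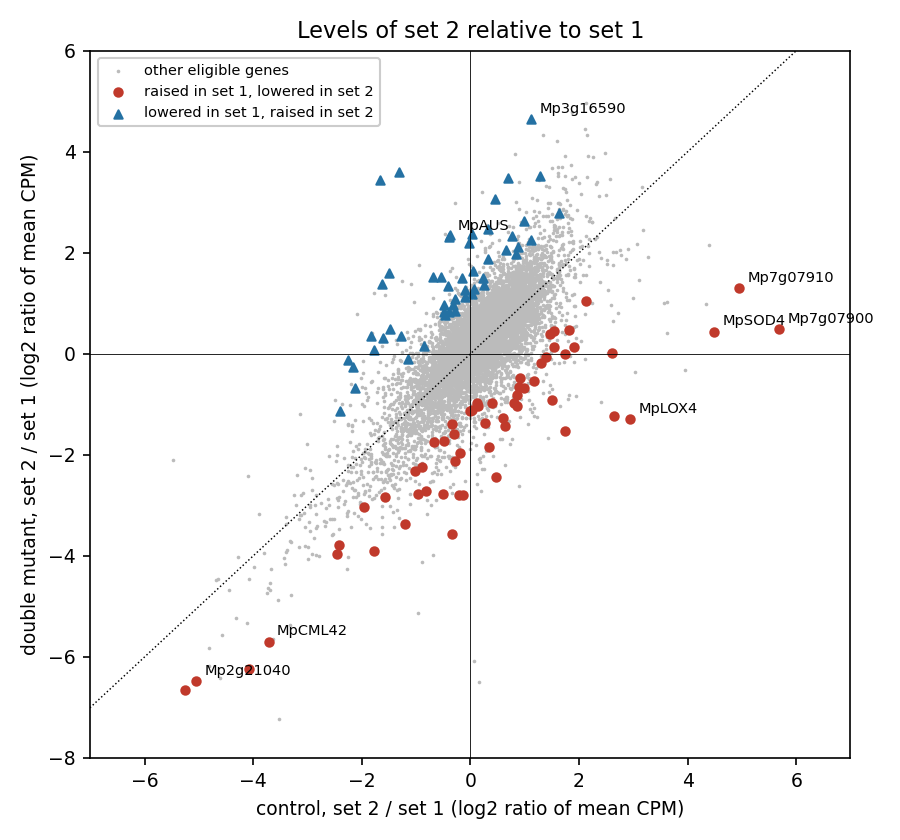
Log2 ratio of set 2 to set 1 for the controls (x axis) and the double mutants (y axis), as mean CPM with 0.5 added; grey points are the other eligible genes and the dotted line marks equal gaps. By the rule, red circles lie below that line and blue triangles above it; Mp7g07900 and MpSOD4 lie far to the right and within 1 log2 unit of 0 on the y axis.

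Single libraries carried part of the choice. Mpez1-1 replicate 3 was the highest of its group for 46 of the 58 genes and the lowest for 34 of the 50, or 79.3% and 68.0%, beside 38.4% and 43.2% of the eligible genes. Leaving it out removed 13 of the 58 genes and 11 of the 50. Set 2 control replicate 1 was at least 2-fold above the other controls of its group for 8 of the 58 genes (Mp5g12260, Mp1g09120, Mp4g02070, MpLOX4, Mp2g08570, Mp1g09210, Mp5g20047 and Mp2g21040), or 13.8%, beside 0.829% of the eligible genes, and leaving it out removed 19 of the 58. Without it, the set 2 ratio of 5 of these 8 genes changed direction. It was 1.98 for MpLOX4, 1.09 for Mp5g12260, 3.90 for Mp5g20047, 1.42 for Mp4g02070 and 1.18 for Mp2g21040. For Mp1g09120 it was 0.709, in place of 0.428. For Mp1g09210 and Mp2g08570 it was 0.986 and 0.935, close to no change, in place of 0.677 and 0.639. Set 2 control replicate 3 was no more than 0.5 times the other controls for 6 of the 58, or 10.3%, beside 0.157% of the eligible genes, among them the neighbours Mp7g07900 and Mp7g07910.

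In the Mpez1-2 group, replicate 3 stood apart for Mp4g19930, a gene picked after its values were seen, with 489, 444 and 441 CPM in the Mpez1-1 libraries, against 159.9, 122 and 147 CPM in set 1 controls, and 10.3, 12.4 and 175 CPM in the Mpez1-2 libraries, against 109, 137 and 124 CPM in set 2 controls. Without that library its set 2 ratio was 0.0958, in place of 0.537. Replicate spread was wider for the 108 genes than for the eligible genes, which the choice partly builds in. A library standing apart can move a group mean past a ratio, and levels were not matched. Median levels in the Mpez1-1 group were 36.2 CPM for the 58 genes and 8.83 CPM for the 50, beside 29.3 CPM for the eligible genes. The median coefficient of variation in the Mpez1-1 group was 21.7% for the 58 genes and 25.5% for the 50, beside 11.2% for the eligible genes, and in the set 2 controls it was 17.9% and 17.8%, beside 7.37%. What the libraries that stand apart share was not tested.

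The rule held in each of the 12 settings that leave out 1 library for 39 of the 108 genes, 19 of the 58 and 20 of the 50. The named genes among them were MpSOD4, MpCML42, MpZIP1 and MpFTPSL1 in the first class, and MpPPO32, MpSAUR3, MpLEA-like33, MpBHLH15, MpCYP704-like8 and MpGRAS2 in the second. For MpSOD4 and MpCML42 the set 2 contrast was not called by edgeR. These settings were read after the values had been seen.

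**Figure D5:**
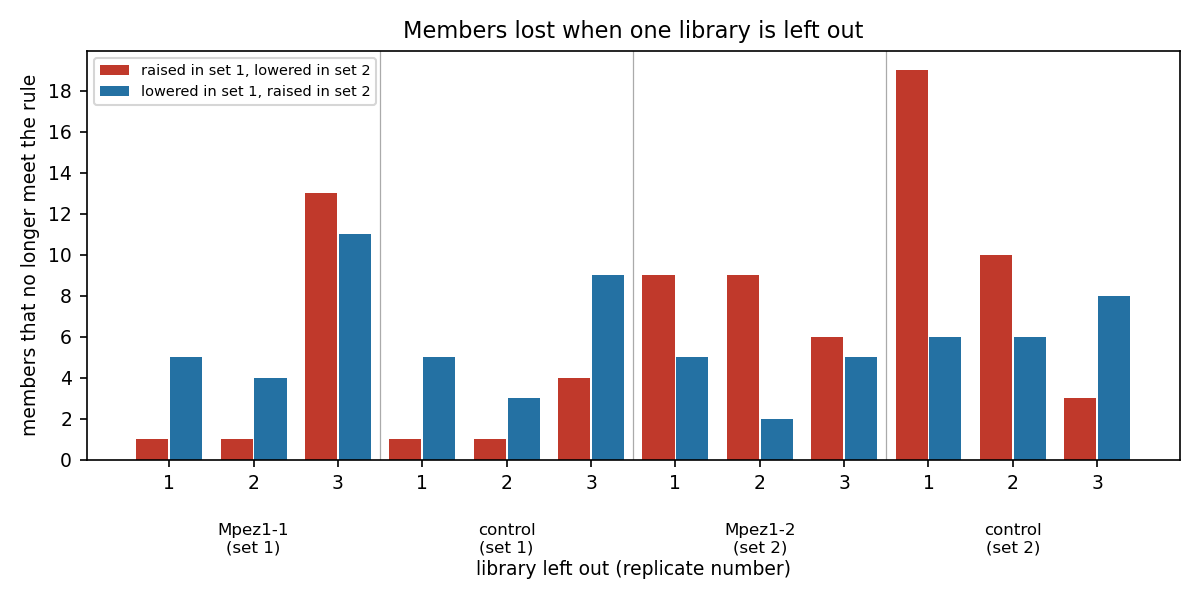
Number of the 58 genes higher in set 1 and lower in set 2 (red) and of the 50 genes lower in set 1 and higher in set 2 (blue) that no longer met the rule when the library on the x axis was left out. The tallest bars are set 2 control replicate 1 (19 red) and Mpez1-1 replicate 3 (13 red, 11 blue).

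Lists of gene families were then counted by symbol, over eligible members and with the same edgeR calls. Of 61 class III peroxidase genes, 15 were called higher and 27 lower in set 1, and 27 higher and 11 lower in set 2, with median log2 ratios of -0.42 and 0.24. Of 22 polyphenol oxidase genes, 7 were called higher and 10 lower in set 1, and 11 higher and 3 lower in set 2, with medians of -0.38 and 0.72. In these families the median ratio was below 0 in set 1 and above 0 in set 2, and 3 peroxidase and 2 polyphenol oxidase genes passed both ratios, beside 0.46% of the eligible genes. The medians had the same signs in the cupin and germin-like, transcription factor and auxin lists, the last at -0.01 and 0.20. Gene by gene and at any size, 14 peroxidase genes (23.0%) and 4 polyphenol oxidase genes (18.2%) were lower in set 1 and higher in set 2, beside 17.7% of the eligible genes. The same held for 32 of 127 transcription factor, 4 of 17 cupin and germin-like and 16 of 72 ABC transporter genes. It held for 6 of 63 cytochrome P450 and 0 of 26 UDP-glycosyltransferase genes. Over all 10863 eligible genes, 2242 were called higher and 2966 lower in set 1, and 1642 higher and 2165 lower in set 2.

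The other lists with a gene among the 108 gave the following counts; superoxide dismutase, calmodulin-like, protein phosphatase 2C, proton pump and SAUR genes had no list. Of 127 transcription factor genes, a list that holds MpBHLH15 and MpGRAS2 but not MpBZR1, 33 were called higher and 31 lower in set 1, and 35 higher and 13 lower in set 2 (medians -0.02 and 0.08). Of 174 cell wall genes 54 were higher and 50 lower in set 1, and 40 higher and 48 lower in set 2 (medians -0.02 and -0.01). The 63 cytochrome P450 genes had 28 higher and 12 lower in set 1, and 26 higher and 12 lower in set 2 (medians 0.29 and 0.17). Late embryogenesis abundant, dehydrin and oleosin genes, 27 in number, had 12 higher and 6 lower in set 1, and 10 higher and 5 lower in set 2 (medians 0.29 and 0.06).

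Of 17 cupin and germin-like genes 3 were higher and 7 lower in set 1, and 3 higher and 3 lower in set 2 (medians -0.39 and 0.05). Of 11 lipoxygenase genes 4 were higher and 2 lower in each set (medians 0.09 and 0.37), and of 10 terpene synthase genes 6 were higher and 2 lower in set 1, and 3 higher and 1 lower in set 2 (medians 0.73 and 0.16). No gene passed the rule among 34 dirigent, 7 pathogenesis-related, 55 phenylpropanoid and flavonoid, 26 UDP-glycosyltransferase, 29 glutathione S-transferase, 72 ABC transporter, 59 receptor-like kinase, 4 heat shock, 24 dioxygenase, 19 nitrate and peptide transporter, 10 auxin and 24 chromatin genes. By their symbols, MpCHS-like fell outside the flavonoid list and MpSAUR3 outside the auxin list. The photosystem list matched no eligible gene by symbol.

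Position and strand were examined as features outside the rule. Identifiers of chromosome 5 were borne by 12 genes of each class, 20.7% and 24.0%, beside 11.8% of the eligible genes. Chromosome 7 identifiers were borne by 8 of the 58 genes and 1 of the 50, beside 10.47%. In the gene order of the reference assembly 3 pairs lay next to each other or 1 gene apart: Mp7g07900 with Mp7g07910, Mp5g04580 with Mp5g04600, and Mp5g15290 with Mp5g15310, a pair with 1 gene in each class. A symbol was held by 13.8% of the 58 genes and 38% of the 50, beside 19.3% of the eligible genes.

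Opposite-strand reads were few for most of these genes, with a median of 0.465% of both strands' counts for the 58 and 0.596% for the 50, beside 0.463% for the eligible genes. They exceeded 5% for 2 genes of each class, or 3.45% and 4.0%, beside 4.18% of the eligible genes: MpFTPSL1 (9.53%), Mp1g12010 (6.69%), MpCYP704-like8 (21.2%) and Mp2g18750 (50.9%). MpCYP704-like8 had 3, 16 and 9 opposite-strand counts in the Mpez1-1 libraries, against 40, 33 and 28 in set 1 controls. In set 2 the Mpez1-2 libraries held 58, 59 and 92, against 66, 61 and 76 in set 2 controls. Mp2g18750 had 34, 24 and 29 in the Mpez1-1 libraries, against 82, 78 and 83 in set 1 controls, while in set 2 the Mpez1-2 libraries held 30, 33 and 36, against 28, 21 and 31 in controls of set 2. In set 1 the opposite-strand counts of both genes were lower in every double mutant library than in every control. The source of these reads was not tested.

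At the edge of the rule, Mp3g12690 (ratios 1.84 in set 1 and 0.714 in set 2) and Mp7g10320 (1.41 and 0.681) were the genes nearest inside the first class, and MpPLD7, named for phospholipase D, (3.84 and 0.719) and Mp3g11590 (4.34 and 0.722) the nearest outside it. In the other class Mp4g22090 (0.640 and 1.41) and MpBZR1 (0.695 and 1.42) were the nearest inside, and MpMORF (0.709 and just under 1.4) and the polyphenol oxidase gene MpPPO37 (0.716 and 1.71) the nearest outside.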

How the data were processed

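Polyadenylated RNA of 12 libraries was sequenced with a directional kit. The authors deposited raw read counts per gene and transposable element copy, 1 table per library and strand, after Trim Galore and STAR, per the submitters' processing notes; for the counting tool, genome build and strand settings, nothing is given in the sources used here. Each library's second table was taken to hold the opposite strand because of its low total. CPM was computed from each library's gene counts. Contrasts were tested on the counts with edgeR 4.0.16 in R 4.3.3 (quasi-likelihood, robust; TMM over genes and element copies; minimum count 10, minimum total 15; Benjamini-Hochberg adjusted p under 0.05 over all genes), after the procedure was tested on simulated data. DESeq2 1.42.0, other scaling, no filter, other rule settings, a replicate block and leaving out each library were alternatives. The 3 libraries of a group limit precision, and p-values measure the spread between them. Gene counts per library were 7019900 to 12098548. The 108 genes and the gene lists were chosen with earlier results of these data known. Genes were named by rule: per class, up to 20 with a symbol, the 6 with the largest smaller ratio, the 4 with the highest CPM and the 2 nearest the threshold on each side. Genes in other roles, such as those with many opposite-strand reads or a library standing apart, and those in the plot of single genes, were named after their values were seen. Symbols and gene order came from the RefSeq table of assembly MpTak2 v7.1, matched by identifier for 17624 genes, of which 3088 had a symbol; no coordinates were used.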

Additional observations from a re-analysis of the deposited data

Results flagged for a closer look

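Differences between the sets under the same contrast were present by construction, since the genes were chosen for them. Of the 58 genes higher in set 1 and lower in set 2, 36 had every Mpez1-1 library above every set 1 control and every Mpez1-2 library below every set 2 control, beside 2.07% of the eligible genes; for this count the difference was not tested. The test of the difference itself, by edgeR over all 12 libraries, called 50 of the 58, beside 12.3% of all genes tested in that direction. Of the 50 genes lower in set 1 and higher in set 2, 38 had every library on opposite sides in the 2 sets, beside 2.4% of the eligible genes and again untested, and 47 were called by the test of the difference, beside 10.7% of all genes tested. The contrast is the one the choice used, so these counts describe the genes and support nothing further.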

How the results depend on the processing

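The number of genes depended most on the thresholds: a minimum control level of 10 CPM left 32 genes higher in set 1 and lower in set 2 and 25 the other way, a ratio of 1.5 left 33 and 31, and a ratio of 2 left 5 and 5. In each of the 12 settings that leave out 1 library, an alternative chosen after seeing the data, 19 and 20 genes met the rule. Leaving out 1 library gave 45 to 74 and 44 to 58 genes. With Mpez1-1 replicate 3 and set 2 control replicate 1 left out together, also chosen after seeing the data, 38 and 42 did. TMM scaling gave 74 and 40. The log2 ratio of MpLOX4 in set 2 changed sign to 0.62 with the median of replicates and to 0.99 without set 2 control replicate 1, where its other extreme was -1.37 without replicate 3. The log2 ratio of Mp5g12260 in set 2 changed sign to 0.12 without set 2 control replicate 1 and was -1.54 without replicate 3. The log2 ratio of Mp7g07330 in set 1 changed sign to -0.33 with the median and to -0.70 without Mpez1-1 replicate 3, with 1.42 without Mpez1-1 replicate 1 as the other end. With both libraries left out these 3 values were the same, and the cause was not tested. Of 1056 values of the 44 genes named by rule, 1048 kept their direction under the alternatives. Every alternative reused libraries by which these genes were chosen, so this agreement was largely built in. Alternatives that changed only the amount added to each mean were bound to keep the direction, since adding an equal amount to both means cannot turn a ratio. Over all 108 genes and the 12 settings without 1 library, 6 changed direction in a set: these 3 genes and, outside the 44, Mp5g20047, Mp4g02070 and Mp2g21040 in set 2 without control replicate 1. Genes called by edgeR without 1 library ranged from 5137 to 6237 in set 1, 3829 to 4968 in set 2, 2344 to 3841 for the difference, 6410 to 6840 between controls and 6674 to 8201 between double mutants. To see whether replicate numbers pair samples, the log2 level of each gene was taken as its deviation from the mean of its group. These deviations, not whole expression profiles, were correlated between the double mutant and control libraries of a set. For same-numbered replicates they correlated at 0.041, -0.003 and 0.11 in set 1 and 0.082, 0.065 and 0.087 in set 2. The deviations of different-numbered replicates correlated at -0.158 to 0.147 in set 1. In set 2 they correlated at -0.076 to 0.005, below every same-numbered value. All these correlations were weak, and the numbers were not taken to pair samples. Whether they do so in set 2 was not tested. With a replicate block, 52 and 54 genes met the rule and edgeR called 6444 in set 1, 4935 in set 2, 3078 for the difference, 6907 between controls and 7349 between double mutants. Depth limits the genes near 2 CPM, which had few counts per library.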

Other observations

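Mp5g04580 and Mp5g04600, separated by 1 gene in the reference order and both lower in set 1 and higher in set 2, had counts close to each other in replicates 1 and 3 of the set 1 controls and less so in replicate 2. Mp5g04580 had 45, 68 and 426 counts and Mp5g04600 had 46, 99 and 429 counts there. In the Mpez1-1 libraries they had 6, 4 and 0 counts and 7, 9 and 4 counts. Whether reads are shared between these genes was not tested.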
